A study of Mus musculus with 6 samples.

Results

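The cartilage collagens II, IX, X and XI are encoded by 7 mouse genes, Col2a1, Col9a1, Col9a2, Col9a3, Col10a1, Col11a1 and Col11a2. They were found as the 11 probe sets of the array whose annotation gave exactly 1 of these genes, out of 45037 probe sets for 18193 named genes once control probe sets were left out. They are described in sorted calvarial osteocytes of mice lacking estrogen receptor alpha (ERα, encoded by Esr1) in osteocytes, with 3 arrays, set against control littermates, with 3 arrays. The knockout genotype is written ERαΔOcy/ΔOcy, and the controls are called WT in the sample titles but ERαflox/flox in the extraction protocol. All mice were female C57/BL6 animals of 10 to 12 days, and all carried Dmp1-GFP, which marks cells in which the promoter of the bone matrix gene Dmp1 is active. Sutures were removed, and cells of fractions 4 to 6 of 6 enzymatic digestions were sorted for green fluorescence. No source used here names the Cre driver or says whether controls carried Cre. The series design says that RNA was not pooled, while the protocol speaks of pooled calvarial tissue, so the p-values measure the spread between arrays, which need not be the spread between mice.

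Collagen II, a homotrimer of the Col2a1 product, is the main fibril of cartilage. Collagen IX, built from the products of Col9a1, Col9a2 and Col9a3, lies on the surface of those fibrils, and collagen XI, built from the products of Col11a1, Col11a2 and Col2a1, lies inside them. Collagen X, from Col10a1, is a short-chain collagen laid down by hypertrophic chondrocytes, the enlarged cells that precede bone formation in a growth plate. Collagen XI chains also occur outside cartilage, bone among other tissues. Osteocytes of the skull roof lie in bone that forms largely without a cartilage template.

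Values are the deposited signals, on a linear scale, and log2(signal + 16) after quantile normalisation, the scale of every log2 level, difference and fold below. A difference is knockout minus control, and a difference on this scale understates the change of dim genes. Array medians of the deposited signal were 20.2 to 28.6 in knockout and 18.7 to 22.7 in control arrays. Control replicate 2 stood apart, with a summed signal of 181 over 12 skeletal muscle markers, against 4484 to 21792 in the knockout arrays and 32606 and 38517 in the other controls. Control replicate 1 had a summed signal of 2196 over 7 macrophage markers, against 5756 to 8731 on the other arrays. Values without control replicate 2 are given beside the results it moves most. The arrays held the osteocyte marker Dmp1 at log2 levels of 12.55 ± 0.14 in knockout and 12.85 ± 0.16 in control (SD, n = 3 each), and 9 of 10 osteocyte markers passed the level filter, all but Fgf23. Esr1 had signals of 81.5, 76.1 and 123.8 in knockout arrays and 115.4, 94.1 and 83.3 in control arrays, and differed by -0.20 ± 0.12 (SE, limma adjusted p = 0.572). Its further probe sets differed by -0.86 ± 0.13 and -0.13 ± 0.21 (SE, limma over all probe sets, adjusted p = 0.213 and 0.900). The labels do not say which part of Esr1 is deleted, so these probe sets do not check the genotypes.

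In knockout arrays Col2a1 and the 3 collagen IX genes lay 2.68-fold to 3.33-fold above control, with every knockout array above every control array. The 2 collagen XI genes did not share this: Col11a1 lay at 0.97-fold of control and Col11a2 at 0.75-fold. Col10a1 was scattered too widely to place. By limma over 10916 tested genes, 0 of the 7 genes passed an adjusted p of 0.05, as did 0% of all genes. Of the 7 genes, 5 lay above 0 and 2 below, against 48.3% and 51.7% of all genes. At an unadjusted p under 0.05 there were 4 of 7 higher, against 5.85% of all genes, and 1 of 7 lower, against 4.69%. Groups did not overlap for 4 genes on the higher side and 1 on the lower side, where 9.23% and 7.76% of all genes did the same. A log2 difference above 1 was seen for 5 of 7 genes and for 0.247% of all genes. Of the 4 further probe sets, 2 were higher at an unadjusted p under 0.05, against 4.74% of all 45037. The median over the 7 genes was 1.42, and over all genes tested -0.01. All 7 genes passed the filter on low levels. Col9a2 did so through its knockout arrays, since its control mean of 5.367 lay just under the limit of 5.371, so the counts over the tested genes are descriptions. With 3 arrays against 3, an exact 2-sided permutation test of a single gene cannot give a p under 0.1. In these bulk samples a higher share of cells of a type and more RNA per cell cannot be told apart.

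**Figure D1:**
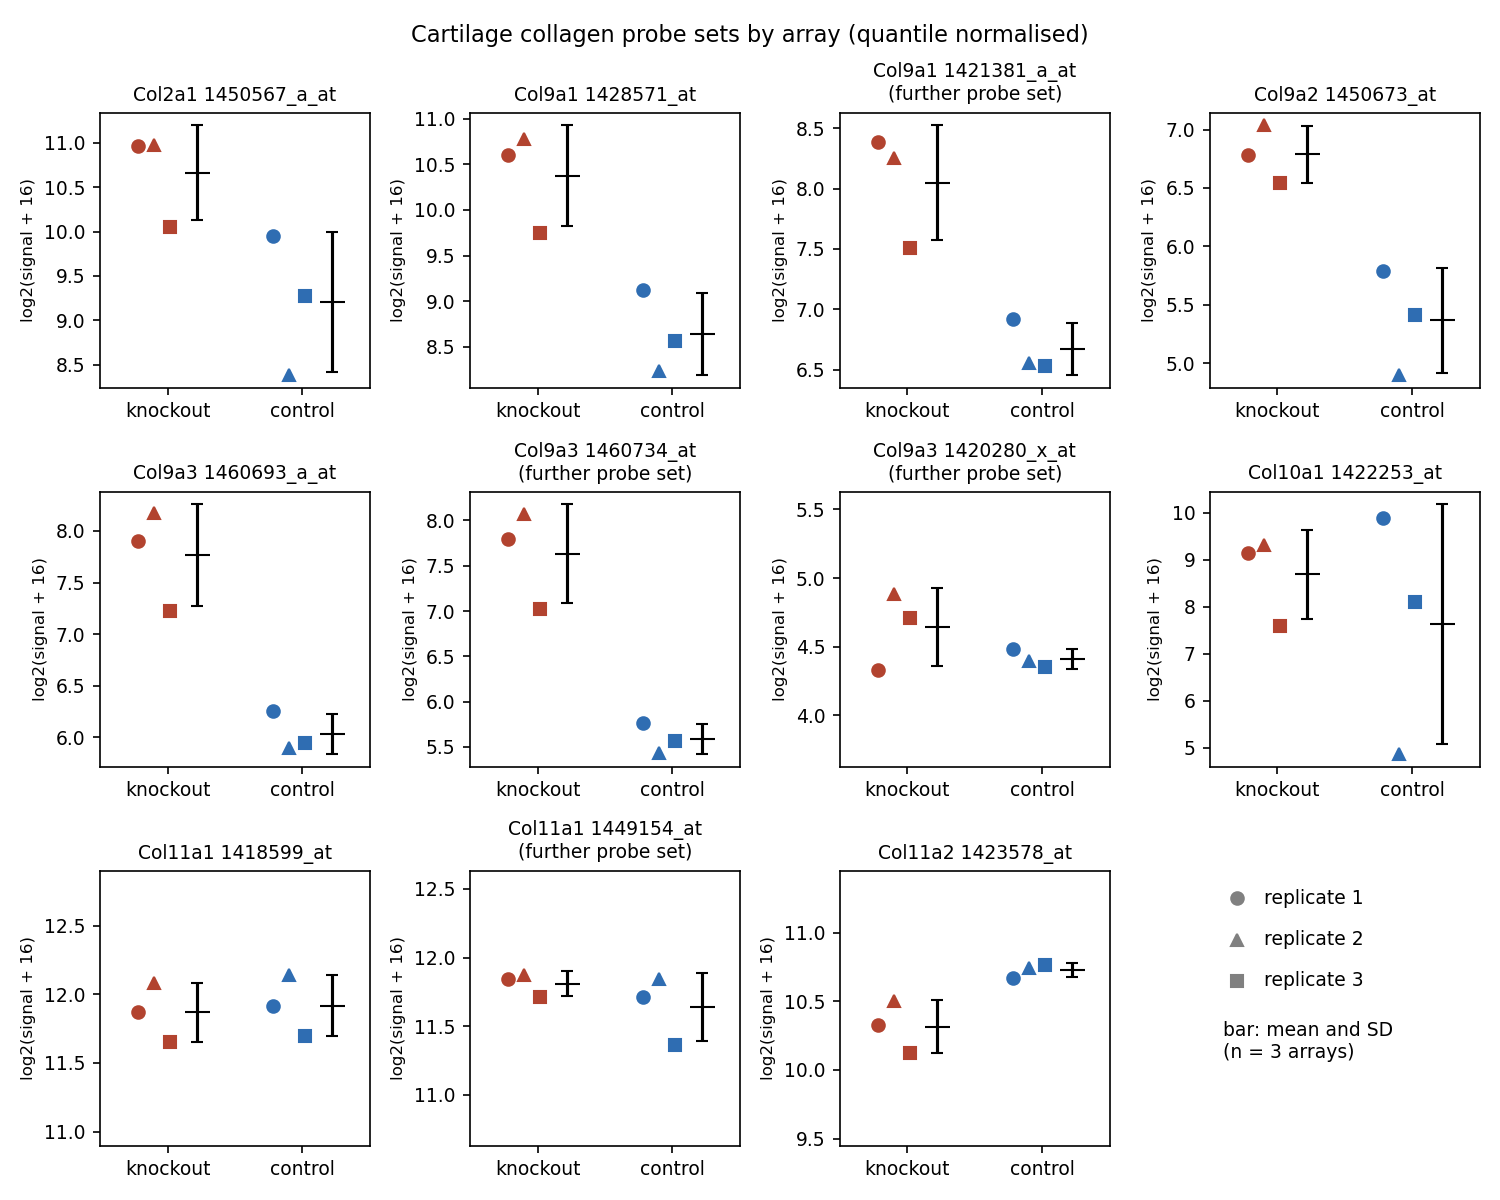
Log2(signal + 16) after quantile normalisation of the 11 probe sets of the 7 cartilage collagen genes, with 1 point per array, knockout left and control right, and bars for the mean and SD of 3 arrays. Knockout points lie above all control points for Col2a1, Col9a1, Col9a2 and 2 of the 3 probe sets of Col9a3, below them for Col11a2, and among them for Col10a1 and Col11a1.

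Col2a1 (GRCm38.p6, chromosome 15, 97975602 to 98004724) was read by 1 probe set. Its deposited signals were 1938.0, 1919.2 and 1298.4 in knockout replicates 1, 2 and 3, against 1021.7, 296.9 and 525.3 in control replicates 1, 2 and 3. The knockout arrays were all higher, and the lowest control array was replicate 2. Log2 levels averaged 10.66 ± 0.53 in knockout and 9.20 ± 0.79 in control (SD, n = 3 each), a difference of 1.46 ± 0.41 (SE, limma adjusted p = 0.329). The gap between the groups was narrow after normalisation, with 10.05 in knockout replicate 3 and 9.95 in control replicate 1. Without control replicate 2 the difference was 1.05 ± 0.31 (SE, limma adjusted p = 0.151).

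Col9a1 (chromosome 1, 24177589 to 24252738) was read by 2 probe sets, and both were higher in every knockout array. The one that stands for the gene had signals of 1503.2, 1688.5 and 1071.2 in knockout arrays, against 568.8, 265.3 and 316.2 in control arrays. Its log2 level was 10.37 ± 0.55 in knockout and 8.64 ± 0.45 in control (SD, n = 3 each), and the difference of 1.73 ± 0.31 (SE) came with a limma adjusted p of 0.183. The second had 312.0, 272.7 and 210.9 in knockout arrays, against 111.1, 71.4 and 66.2 in control arrays. It differed by 1.38 ± 0.23 (SE, limma over all probe sets, adjusted p = 0.221). The log2 ratio of the first to the second probe set was higher in each knockout array than in any control array, by 0.35 on average (exact permutation p = 0.1, the smallest possible). The gap was small, between 2.21 in knockout replicate 1 and 2.20 in control replicate 1, and the ratio of the deposited signals overlapped, at 4.82 to 6.19 in knockout and 3.72 to 5.12 in control arrays. The annotation used here does not place them in the gene.

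Col9a2 (chromosome 4, 121039566 to 121055325) was read by 1 probe set. Its signals were 92.8, 108.6 and 99.6 in knockout arrays, against 41.5, 13.1 and 22.8 in control arrays, where the array medians of all probe sets were 22.7, 20.5 and 18.7. The control values thus lay around the array median and the knockout values well above it, with no overlap. Log2 levels were 6.79 ± 0.24 in knockout and 5.37 ± 0.45 in control (SD, n = 3 each), differing by 1.42 ± 0.24 (SE, limma adjusted p = 0.183). Because its signals are low, its difference depended on the constant added before the logarithm, and was 0.82 with 64 in place of 16 and 1.91 with 1.

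Col9a3 (chromosome 2, 180598102 to 180622192) was read by 3 probe sets, of which 2 behaved alike. The one that stands for the gene had signals of 217.7, 258.3 and 169.8 in knockout arrays, against 64.3, 39.8 and 39.4 in control arrays. The groups were well separated, with the lowest knockout array far above the highest control array. Its log2 level was 7.77 ± 0.49 in knockout and 6.03 ± 0.20 in control (SD, n = 3 each), and its difference of 1.73 ± 0.24 (SE, limma adjusted p = 0.142) ranked 10 of 10916 by p. The next probe set had 203.1, 240.9 and 145.5 in knockout arrays and 40.6, 25.1 and 27.0 in control arrays, and differed by 2.04 ± 0.26 (SE, limma over all probe sets, adjusted p = 0.164). The third stayed between 3.5 and 13.1 on all arrays, below each array's median, with overlapping groups and a difference of 0.23 ± 0.16 (SE). The ending x_at of its name marks probes that the array maker lists as shared with other transcripts.

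**Figure D2:**
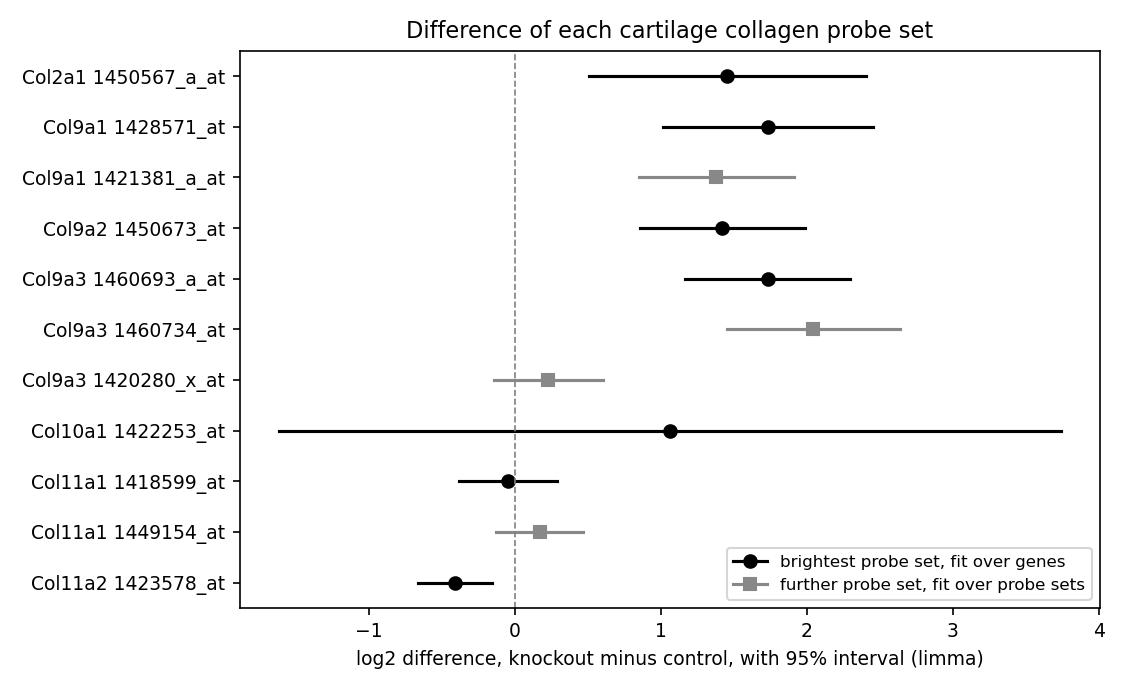
Log2 difference, knockout minus control, with its 95% interval from limma, for the 11 probe sets. Black circles are the probe set that stands for each gene and grey squares the further ones. Intervals lie above 0 for Col2a1, both probe sets of Col9a1, Col9a2 and 2 probe sets of Col9a3, below 0 for Col11a2, and across 0 for Col10a1, both probe sets of Col11a1 and the third of Col9a3.

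The RefSeq promoter table (GRCm38.p6) held windows for 5 of the 7 genes, 6 windows in all, since Col9a1 has 2 annotated starts. The 250 bases before each start are shown for the collagen IX genes found there, as genes that were higher together, and for Col10a1, which was not separated. The starts are those of the promoter table and can lie inside the loci given here. The upstream Col9a1 window ends at 24177609, past the locus start of 24177589, and the Col11a1 and Col11a2 windows also reach into their loci. Each was searched on both strands for the SOX motifs AACAAT and ACAAAG, the TATA box TATAAA, the GC box GGGCGG, the estrogen response element GGTCANNNTGACC and its half-site AGGTCA, whose last letters overlap the first of the full element. Capitals mark the matches. The windows are chr1:24177360-24177609 and chr1:24194953-24195202 for the upstream and downstream start of Col9a1, chr4:121039316-121039565 for Col9a2 and chr10:34389731-34389980 for Col10a1, all on the plus strand, written 5′ to 3′.
Col9a1 upstream start: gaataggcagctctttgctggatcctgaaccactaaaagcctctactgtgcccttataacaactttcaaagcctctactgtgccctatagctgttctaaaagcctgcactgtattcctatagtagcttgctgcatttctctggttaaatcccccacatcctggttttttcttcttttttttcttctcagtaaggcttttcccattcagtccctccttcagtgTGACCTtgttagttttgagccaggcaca
Col9a1 downstream start: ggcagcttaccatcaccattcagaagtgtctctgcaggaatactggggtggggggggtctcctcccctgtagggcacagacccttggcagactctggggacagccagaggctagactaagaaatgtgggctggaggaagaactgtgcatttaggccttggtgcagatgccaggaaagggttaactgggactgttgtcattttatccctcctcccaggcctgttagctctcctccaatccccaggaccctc
Col9a2: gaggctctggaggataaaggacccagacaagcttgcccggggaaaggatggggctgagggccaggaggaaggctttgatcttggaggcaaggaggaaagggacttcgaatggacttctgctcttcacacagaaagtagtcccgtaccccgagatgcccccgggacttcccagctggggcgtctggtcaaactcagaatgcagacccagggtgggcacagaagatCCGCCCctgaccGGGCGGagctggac
Col10a1: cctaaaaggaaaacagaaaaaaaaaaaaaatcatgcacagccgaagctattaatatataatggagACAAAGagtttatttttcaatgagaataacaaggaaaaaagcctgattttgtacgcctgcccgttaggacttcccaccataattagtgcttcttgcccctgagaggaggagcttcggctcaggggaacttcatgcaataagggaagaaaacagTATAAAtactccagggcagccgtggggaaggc

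The upstream Col9a1 window held the half-site once, on the minus strand, and the downstream window held none of the 6 motifs. Col9a2 held the GC box on both strands close to its start. Col10a1 held a TATA box 32 bases before its start and ACAAAG once. Among 32851 promoter windows of the same length, 14.0% held the half-site, 32.7% the GC box, 12.4% the TATA box, 16.5% ACAAAG and 9.42% AACAAT. The half-site was also in the Col11a1 window, and the full estrogen response element, found in 0.0639% of all windows, was in none of the 6. A match describes letters in a window and is not a binding site, and a window without a match says nothing about the factor.

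Col10a1 (chromosome 10, 34389981 to 34397085), the hypertrophic collagen, was read by 1 probe set with the widest spread of the family. Its signals were 540.8, 600.1 and 224.0 in knockout arrays, against 981.0, 12.5 and 227.6 in control arrays. The highest and the lowest value both belonged to control arrays, a 78.5-fold range, and the groups overlapped. The log2 level was 8.69 ± 0.95 in knockout and 7.62 ± 2.55 in control (SD, n = 3 each), with a difference of 1.06 ± 1.15 (SE, limma adjusted p = 0.782) and a 95% interval from -1.62 to 3.74. Without control replicate 2 the difference was -0.32. That array also had the lowest skeletal muscle level, at -4.16 relative to the mean of the 6 arrays, against -0.85 to 1.06 in the knockout arrays and 2.30 and 2.36 in the other controls, and the part of this in the result was not tested.

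Col11a1 (chromosome 3, 114030479 to 114220756) differed least. The probe set that stands for it had signals of 3742.9, 4206.0 and 3960.6 in knockout arrays, against 3992.7, 4221.7 and 2905.5 in control arrays. The groups overlapped, and its log2 level was 11.87 ± 0.21 in knockout and 11.92 ± 0.22 in control (SD, n = 3 each). The difference of -0.05 ± 0.14 (SE, limma adjusted p = 0.932) had a 95% interval from -0.38 to 0.29, which does not reach the differences measured for Col2a1 or collagen IX. The second probe set had 3637.3, 3621.0 and 4108.6 in knockout arrays and 3467.5, 3399.8 and 2251.2 in control arrays, and differed by 0.17 ± 0.13 (SE). With the deposited scaling Col11a1 lay at 0.12, where all genes had a median of 0.14, so its sign is not settled.

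Col11a2 (chromosome 17, 34038919 to 34066684) was the 1 gene whose knockout arrays all lay below the control arrays. Signals were 1218.3, 1381.1 and 1377.6 in knockout arrays, against 1659.9, 1599.2 and 1487.3 in control arrays. The log2 level was 10.32 ± 0.19 in knockout and 10.72 ± 0.05 in control (SD, n = 3 each), a difference of -0.41 ± 0.11 (SE, limma adjusted p = 0.316). The direction was the same under each of the 16 alternatives tried, between -0.50 and -0.25, and none of them brought it past the threshold.

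Collagen chains, those built into the same fibril and some others, were then compared within each array, as differences of normalised log2 levels. The added constant and the normalisation do not cancel in such ratios. The mean log2 level of the 3 collagen IX genes relative to Col11a1 was higher by 1.68 in knockout than in control arrays, and relative to Col11a2 by 2.04, with no overlap in either case. Col2a1 relative to Col11a1 was higher by 1.50, also without overlap. Collagen IX relative to Col2a1 differed by 0.17, with overlapping groups (exact permutation p = 0.6), and Col11a2 relative to Col11a1 by -0.36, without overlap. Relative to Col1a1, the main collagen chain of bone, collagen IX was higher by 1.68 and Col2a1 by 1.51. In all, 9 ratios were tested, among them that of the Col9a1 probe sets given above. Collagen IX relative to Col10a1 was another, at 0.57 with overlapping groups (exact permutation p = 0.8). The 7 without overlap, the probe set ratio included, each had an exact permutation p of 0.1, the smallest that 3 arrays against 3 allow. After Benjamini-Hochberg adjustment over the 9 it was 0.129. The ratios without overlap describe unequal change among these arrays, which this test cannot establish with 3 arrays against 3. Nor do the ratios show that collagen XI did not change.

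Col2a1 and the collagen IX genes also varied together among arrays of the same genotype. Relative to its own mean over the 6 arrays, Col9a1 lay at 1.09, 1.27 and 0.24 in knockout replicates 1, 2 and 3, against -0.38, -1.27 and -0.95 in control replicates 1, 2 and 3. Col2a1 lay at 1.03, 1.04 and 0.12 in the knockout arrays, against 0.02, -1.55 and -0.65 in the control arrays. For both genes, and for Col9a2 and Col9a3, knockout replicate 3 was the lowest knockout array, control replicate 1 the highest control array and control replicate 2 the lowest. The mean level of chondrocyte markers that are not collagens followed the same order. Among single markers, Acan, Cnmd, Matn3, Snorc and Sox9 did so, while Epyc, Hapln1 and Matn1 did not. Of the 10 markers listed, 9 were tested, and 9 of 9 lay above 0, against 48.3% of all genes. The markers had a mean level of 0.80, 0.91 and 0.12 in knockout arrays, against -0.33, -0.90 and -0.60 in control arrays. Their summed signal was 2537 to 3564 in knockout and 824 to 1487 in control arrays, and none of the 10 was at 0 on any array. The part of chondrocytes or of cells with their RNA in the collagen values was not tested. The level of osteoblast markers stayed within -0.03 and 0.07 in knockout and -0.05 and 0.03 in control arrays, and that of osteocyte markers within -0.13 and 0.03 in knockout and -0.28 and 0.34 in control arrays. The ranges of these marker lists overlapped between genotypes. Pericyte and smooth muscle markers lay below the mean in knockout arrays, at -0.31 to -0.18, and at -0.24 to 0.56 in control arrays. All 9 of 9 tested had a difference below 0, against 51.7% of all genes, and 0 passed the threshold. At an unadjusted p under 0.05, 4 of these markers were lower, against 4.69% of all genes. The markers had a median of -0.46. Without control replicate 2 their median was -0.79 and 5 passed. The median difference was 0.13 over endothelial, 0.04 over osteoclast, -0.06 over macrophage, -0.27 over tendon and fibroblast and -0.07 over skeletal muscle markers, with 0 past the threshold. Most of these medians depended on single control arrays, the endothelial one least. With control replicate 2 left out they were 0.12, 0.32, 0.30, -0.55 and -2.54, and 2, 0, 0, 3 and 3 genes passed. With control replicate 1 left out they were 0.03, 0.05, -0.62, 0.05 and 1.15. Of the osteocyte markers 2 passed without control replicate 2, and of the chondrocyte markers 3 did, with a median of 0.93 against 1.24 with all arrays. Over all genes, 0.788% were higher and 1.94% lower past the threshold without control replicate 2.

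**Figure D3:**
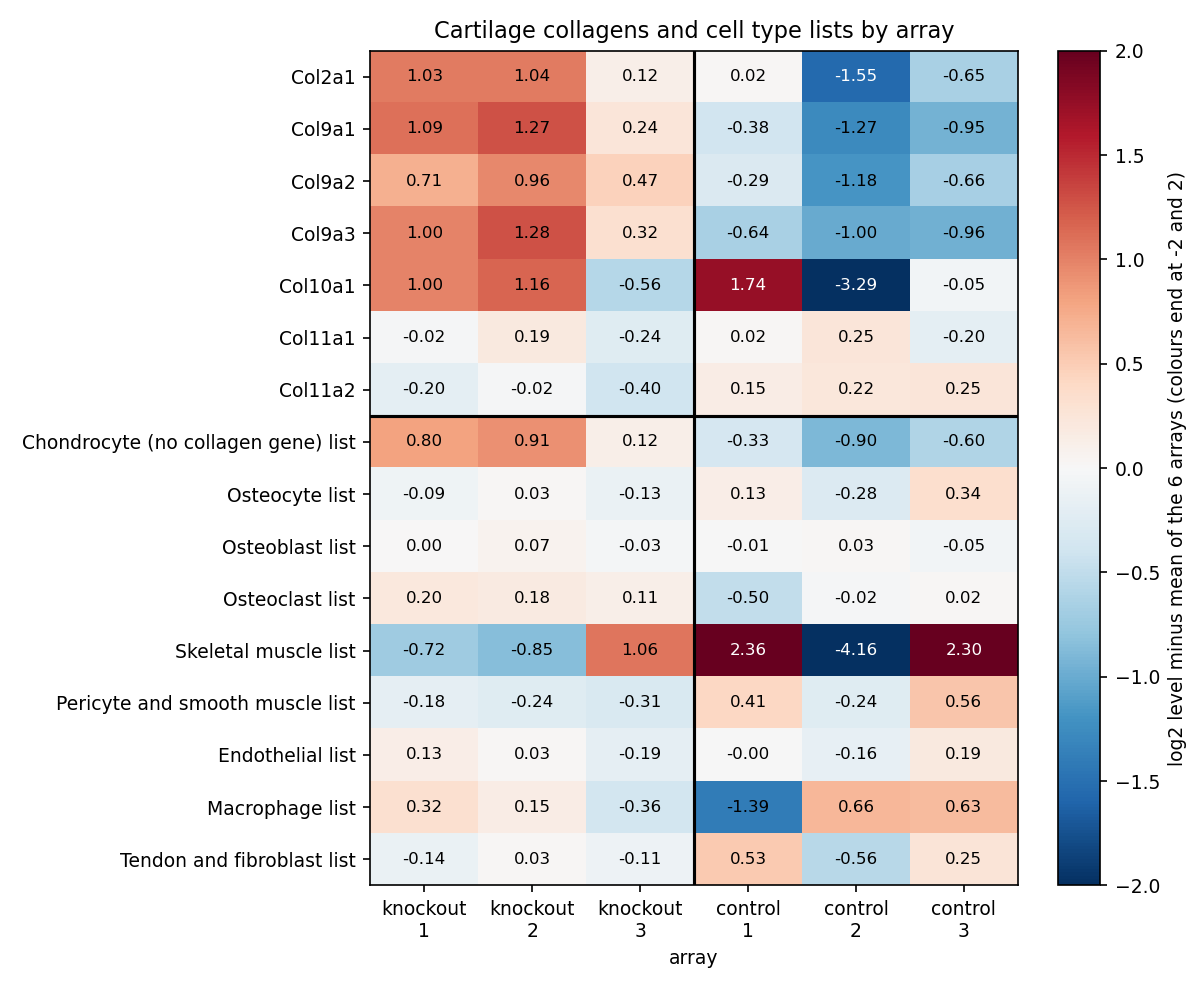
Log2 level minus the mean of the 6 arrays, for the 7 cartilage collagen genes (upper block) and for the mean of each cell type marker list (lower block), knockout arrays left and control arrays right. Col2a1, Col9a1, Col9a2 and Col9a3 run in the same order as the chondrocyte list, Col10a1 is lowest at -3.29 in control replicate 2, where the skeletal muscle list is lowest at -4.16, and the collagen XI genes stay between -0.40 and 0.25.

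The genes whose array pattern was most like each collagen were found by the root mean square difference of centred log2 levels over the 6 arrays, among all tested genes outside the family. Acan, which encodes the core protein of aggrecan, the main proteoglycan of cartilage, came first for Col9a1 (0.27), Col9a2 (0.20) and Col9a3 (0.18), and was within the nearest 3 for Col2a1 (0.41). Next for Col9a1 were Cnmd, chondromodulin, and Matn1, a matrilin of cartilage matrix. Col9a2 was followed by Matn3, another matrilin, and Tspan13, and Col9a3 by Mmp9, a gelatinase, and the exporter Slc47a1. Snorc, a membrane proteoglycan of chondrocytes, came first for Col2a1 (0.31) and Matn3 second. Col10a1 had no close match. Its nearest genes were Snorc at 0.85 and the muscle genes Actc1 at 0.95 and Myf5 at 0.97. Because the collagen XI genes varied little, their nearest genes, Zfp414 and Crnkl1 among them at 0.05 and 0.04, likewise varied little. The 3 nearest to Col11a2, which are Crnkl1, Chst7 and Zscan22, had all knockout arrays below all control arrays, at -0.37, -0.36 and -0.32. They were chosen for their likeness to Col11a2, so this is no separate result. Another probe set of Crnkl1 lay at -0.14 and another of Zscan22 at 0.06.

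Of 15 tested cartilage matrix genes outside the collagens, 13 lay above control, against 48.3% of all genes, and 0 passed the threshold. Their median was 0.95, against -0.01 over all genes. The proteoglycan genes Acan, Epyc and Hapln1, which encodes the link protein of aggrecan, lay at 1.44, 1.38 and 0.99, and Cnmd at 2.23, each without overlap between the groups. Over all genes, 9.23% had no overlap on the higher side. Other probe sets of Hapln1 lay between 0.40 and 0.82. Acan, Cnmd and Epyc passed the threshold without control replicate 2, where 0.788% of all genes did on the higher side. With the deposited scaling 6 of the 15 passed, Hapln1 among them, against 0.275% of all genes. The median was 0.53 with a pseudocount of 64. Prg4 and Cilp were the 2 below 0, and they were named after their values were seen. Among transcription factors of chondrocytes, which bind the enhancers of the collagen II and IX genes in the case of Sox9 and Sox6, 5 of 6 lay above control. Their median of 0.35 was 0.62 with the filter of 60% and 0.20 when the probe sets of a gene were averaged. Sox6 differed by 0.64 ± 0.15, Sox9 by 0.48 ± 0.15 and Trps1 by 0.62 ± 0.20, while Mef2c, which acts in hypertrophic chondrocytes and also in osteocytes, differed by -0.46 ± 0.09 (SE, limma adjusted p = 0.274, 0.377, 0.396 and 0.203). Other probe sets lay at 0.15 and 0.57 for Sox9, 0.18 to 0.25 for Sox6, -0.24 to 0.54 for Trps1 and -0.27 to 0.37 for Mef2c, so the sign is not shared by all probe sets of Trps1 and Mef2c. Growth plate signals and markers of hypertrophy lay above control for 7 of 9 genes, with a median of 0.37 that was 0.18 with averaged probe sets. Among them were Panx3 at 0.45, Alpl at 0.42, the receptor gene Fgfr3 at 0.40 and Ptch1, a target of Hedgehog signalling, at 0.37. One other probe set of Ptch1 lay at -0.14. Alpl passed the threshold without control replicate 2, at 0.52. Every chondrocyte marker listed above is also in the list of matrix genes or of factors, so these lists are not separate observations. The list of signals shares Alpl, Ibsp and Spp1 with the osteoblast markers and Mmp13 with the collagenases. All these lists were chosen with earlier results of these arrays known.

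Among the other collagens, the short-chain and fibril-associated genes were nearest to the cartilage group. Of 6 tested, 5 lay above control, against 48.3% of all genes. Their median of 0.74 was 0.43 without the level filter and 0.47 when the probe sets of a gene were averaged. Col8a2 and Col8a1, short-chain collagens related to collagen X, differed by 0.97 ± 0.24 and 0.78 ± 0.21, and Col12a1 and Col16a1, fibril-associated like collagen IX, by 0.79 ± 0.12 and 0.70 ± 0.11 (SE, limma adjusted p = 0.291, 0.324, 0.183 and 0.183). Other probe sets of Col12a1 lay between -0.16 and 0.35. These 4 genes passed the threshold without control replicate 2, where 0.788% of all genes were higher past it and 1.94% lower. Col12a1 and Col8a2 passed with the deposited scaling, against 0.275% of all genes. The fibrillar collagens outside the family, mostly of bone and soft tissue, had a median of -0.06, or 0.09 with the deposited scaling. There were 2 of 8 above control, among them Col27a1, a fibrillar collagen found in cartilage, at 0.54 ± 0.11 (SE). Col5a3 lay at -0.83 ± 0.22, Col5a2 at -0.13 ± 0.08 and Col1a2 at -0.09 ± 0.06 (SE). Both the Col27a1 difference (0.60) and the Col5a3 difference (-1.08) passed the threshold without control replicate 2, and the second probe set of Col5a3 lay at -0.08 with all arrays. Col5a2 and Col1a2 were at 0.04 with the deposited scaling.

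**Figure D4:**
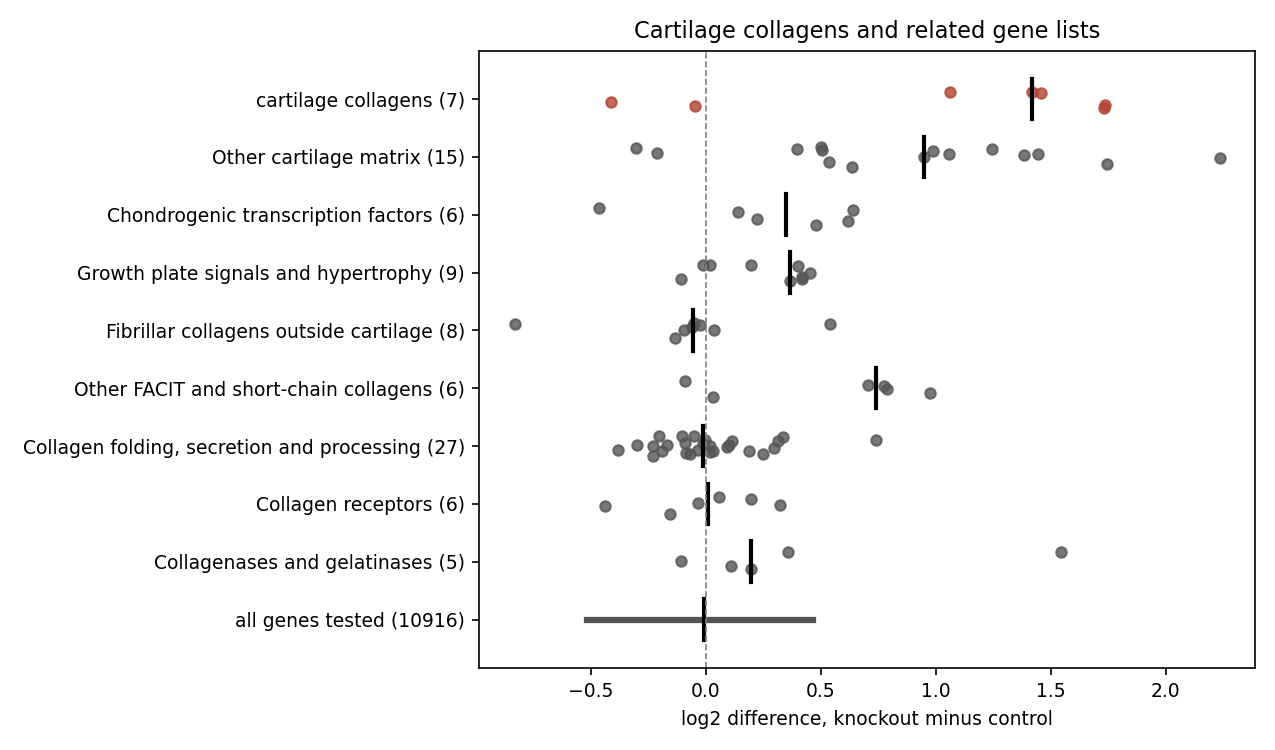
Log2 difference, knockout minus control, of each tested gene (points, spread at random in height) in the cartilage collagens and 8 related lists, with the median of each list as a vertical bar. The lowest line spans the central 95% of all 10916 tested genes, from -0.51 to 0.46. Points of 5 cartilage collagens lie above 1, and the lists of collagen folding and of receptors centre near 0.

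Genes that fold, secrete, trim and crosslink collagen chains had a median of -0.01, or 0.14 with the deposited scaling, where all genes had 0.14 as well. There were 12 of 27 above control, against 48.3% of all genes, and 0 past the threshold. P4ha3, a prolyl hydroxylase subunit, lay at 0.74 ± 0.22 and the lysyl hydroxylase gene Plod3 at 0.30 ± 0.11, while P4ha2 lay at -0.38 ± 0.14 and Serpinh1, the collagen chaperone, at -0.20 ± 0.07 (SE). P4ha3 passed the threshold without control replicate 2, at 1.00. Collagen receptors lay above control for 3 of 6 genes (median 0.01). Among them the collagen-binding kinase Ddr1 differed by 0.32 ± 0.13, the integrin genes Itga1 and Itgb1 by -0.44 ± 0.20 and -0.16 ± 0.09, and the uptake receptor Mrc2 by 0.20 ± 0.11 (SE). Other probe sets of Ddr1 lay between -0.35 and 0.35, the other of Itga1 at 0.12 and those of Itgb1 between -0.42 and 0.05. Of the collagenases and gelatinases, Mmp9 lay at 1.55 ± 0.29, Mmp14 at 0.36 ± 0.25 and Mmp13, the collagenase that cleaves collagen II, at 0.20 ± 0.10, while Mmp2 lay at -0.11 ± 0.08 (SE). A second probe set of Mmp9, which osteoclasts also express, lay at 1.44. Mmp9 passed the threshold with the deposited scaling. The direction of Mmp2 turned with the deposited scaling, to 0.07.

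Calls among the 7 genes depended on 1 control array and on the scaling. Without control replicate 2, Col9a1 (1.53), Col9a2 (1.19) and Col9a3 (1.67) passed the threshold by limma, with adjusted p = 0.0496, 0.0266 and 0.0255. These are 3 of 7 genes, where 0.788% of all genes were higher past the threshold and 1.94% lower. Leaving out any other array brought 0 of the 7 past it. With the deposited scaling, Col2a1 and the 3 collagen IX genes passed, 4 of 7 against 0.275% of all genes on the higher side, with adjusted p between 5.84e-05 and 0.00921. That scaling left all genes with a median difference of 0.14, and 0 genes passed on the lower side. The difference of Col2a1 and of each collagen IX gene stayed above 1 with any 1 array left out.

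**Figure D5:**
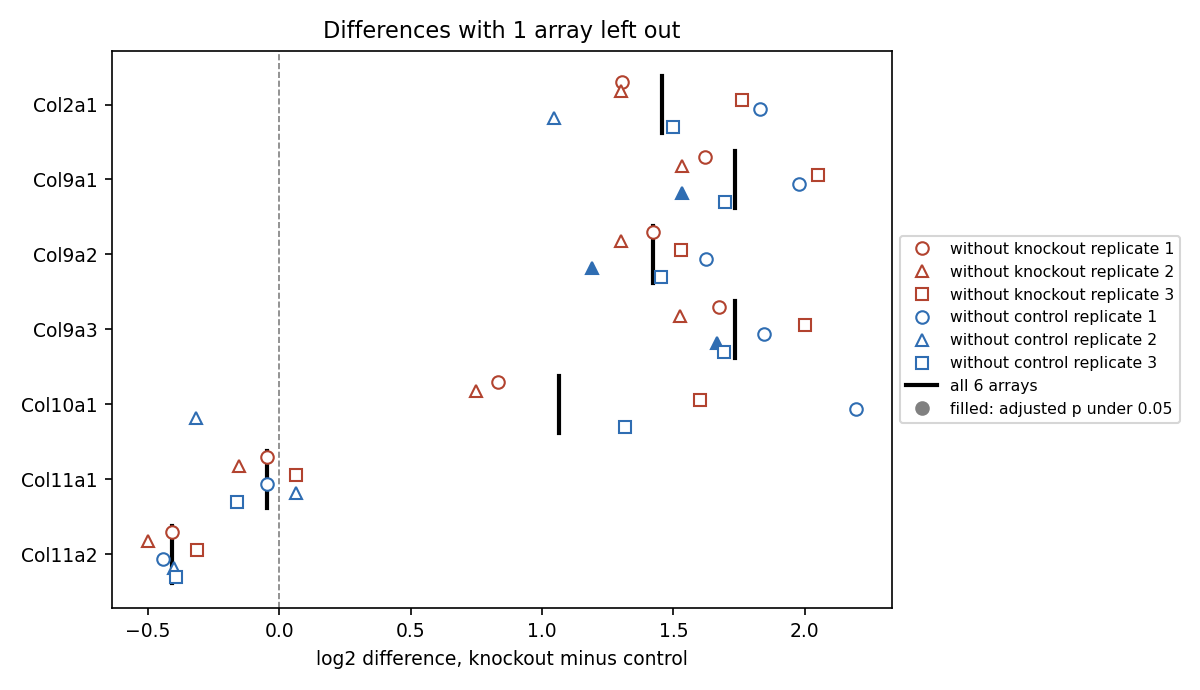
Log2 difference, knockout minus control, of the 7 cartilage collagen genes with all 6 arrays (black bars) and with 1 array left out (red, a knockout array; blue, a control array). Filled points passed an adjusted p of 0.05, which happened for Col9a1, Col9a2 and Col9a3 without control replicate 2. Col10a1 ran from -0.32 to 2.20.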

How the data were processed

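Per the labels' protocols, biotin-labelled RNA of sorted cells was hybridised to Affymetrix GeneChip arrays. The authors deposited 1 intensity per probe set and array on a linear scale. Per the submitters' processing notes GCOS was used. No source used here states the background correction, probe summary or scaling target.

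From the deposited intensity, log2(signal + 16) was computed and quantile normalised. The 64 controls among 45101 probe sets were dropped. Symbols came from the platform annotation and RefSeq, with 34945 probe sets of 1 gene. The brightest probe set stood for its gene, and the lowest 40% of 18193 genes by mean were left out. Knockout and control (3 arrays each, no covariate) were compared by limma 3.58.1 in R 4.3.3, lmFit and eBayes with trend, 2-sided, with Benjamini-Hochberg adjustment over 10916 genes. Further probe sets were fitted over all 45037. The steps were tested on simulated data. The number of arrays limits the precision. No batch is named in the labels.

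The members and gene lists were chosen with earlier results of these data known. Named were all members, up to 4 genes per list with the smallest p, and the 3 genes of most like pattern per member. Alternatives covered normalisation, pseudocount, filter, probe set choice, variance model, array weights, replicate block and single arrays left out.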

Additional observations from a re-analysis of the deposited data

How the results depend on the processing

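The direction of Col2a1, Col9a1, Col9a2, Col9a3 and Col11a2 was the same under each alternative that gave a value. The median over the 7 genes was 0.82 with a pseudocount of 64 and ran from 1.05 to 1.83 with single arrays left out. Over all genes, 30 passed with the deposited scaling and 1 with median centring, and 0 to 298 with single arrays left out, 298 of them without control replicate 2. Of the 7 collagens, 4 passed with the deposited scaling and 0 to 3 with single arrays left out, and the cause of these changes was not tested. The Col11a1 difference lay above 0 with the deposited scaling (0.12), median centring (0.0165), the mean of all probe sets (0.0619), array weights (0.0028), without knockout replicate 3, without control replicate 2 and by its second probe set (0.17), and with single arrays left out it ran from -0.16 to 0.0643. Col10a1 lay at -0.32 without control replicate 2, the lowest of a range up to 2.20. With the deposited scaling, the Col5a2 difference was 0.0361, the Col1a2 difference 0.0362 and the Mmp2 difference 0.0656, with all genes centred on 0.14. Col9a2 fell under the filter of 60% and has no value there. No pairing of the arrays by replicate number was seen. Deviations of same-numbered arrays correlated at -0.38, 0.10 and -0.04 across genes, and 1 of 6 arrays correlated best with its own number. With so few arrays this check cannot exclude a pairing. With the replicate block, 0 genes and 0 collagens passed, and the collagen median was 1.42. Dim signals limit Col9a2 and the third probe set of Col9a3.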
